A study of Mus musculus with 4 samples.

Results

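A set of 9 genes of the primitive streak and of early mesoderm were read in mouse embryonic stem cells (ESCs): Wnt3, Fgf8, T (also written Tbxt, brachyury), Mixl1, Gsc, Evx1, Mesp1, Tbx6 and Kdr. These 9 genes were chosen by name, and every array probe whose accession maps to one of the symbols was taken, which gave 13 probes. A gene was tested when it had a probe that the scanner software called well above background on both haploid or on both diploid arrays, and 5 of the 9 were tested (Fgf8, Gsc, Evx1, Tbx6 and Kdr), among 17963 features of which 13041 carry a symbol. None of the 5 tested differed between haploid and diploid ESCs past the threshold. T, Mixl1, Mesp1 and Wnt3 were near or below the detection limit on most arrays and were not tested.

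The primitive streak is the furrow of the gastrulating embryo through which epiblast cells leave to form mesoderm and endoderm. WNT3 and NODAL signalling induce it, the transcription factors T, MIXL1, EVX1 and GSC mark its cells, and MESP1, TBX6 and the VEGF receptor KDR mark mesoderm that emerges from it. Undifferentiated ESCs are grown so as to stay short of this step, and these genes are commonly read as signs of differentiation.

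The study compared 2 samples of parthenogenetic haploid ESCs with 2 samples of parthenogenetic diploid ESCs, all labelled female and labelled as line 1 and line 2 of each kind. Parthenogenetic cells derive from an egg activated without sperm, so all 4 samples carry only maternal chromosomes, and the series concerns the passage from G2 into mitosis as a way to keep haploid cells haploid. Haploid mouse ESCs tend to turn diploid in culture, and the sources used here do not give the share of haploid cells in each haploid sample. The series' design text calls the 2 samples of a kind independent experiments. The p-values rest on the spread between such samples, which limma moderates by the spread over all features. Spread between lines is not separated from spread between experiments.

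RNA of each sample was labelled with Cy3 and hybridised to its own Agilent array, and all 4 arrays were on 1 slide with 1 scan time. The signal's 75th percentile, by which each array was scaled, lay between 526 and 907 intensity units, and 53.6% to 65.0% of probes were well above background. Diploid replicate 2 had the highest value of both. All 10 ESC identity genes examined, among them Pou5f1, Sox2 and Nanog, exceeded background on every array, and their differences ran from -0.37 to 0.33 on the log2 scale. In bulk samples, fewer cells of a type and less RNA per cell cannot be told apart.

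Levels below are log2 of the signal minus the array's 75th percentile, and differences are haploid minus diploid. The level of 1 probe cannot be set against that of another, so only arrays are compared. The lowest signal that counted as well above background was between -5.38 and -4.60 on this scale, or 17.8 to 25.4 intensity units. Of the 9 genes, 5 had a probe well above background on all 4 arrays, T and Mesp1 had a probe that was so on 1 array each, and Mixl1 and Wnt3 were so on none.

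**Figure D1:**
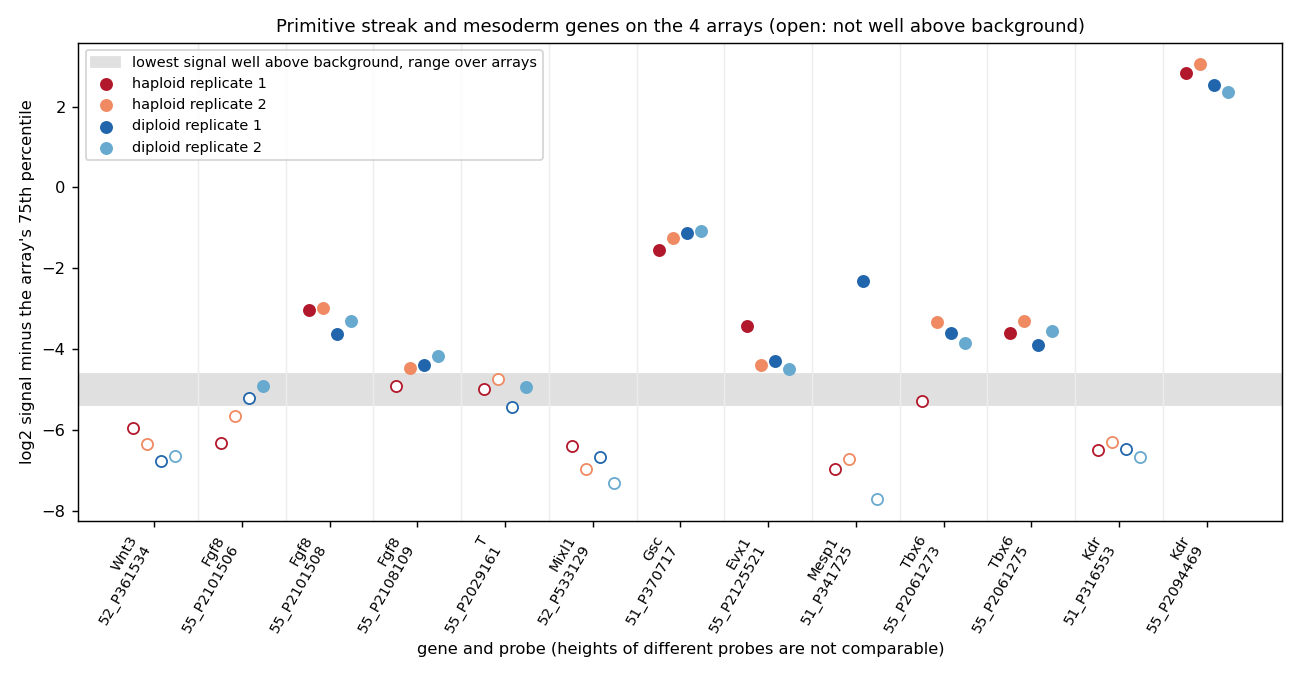
Log2 signal minus the array's 75th percentile for the 13 probes of the 9 genes on the 4 arrays; filled points are well above background, open points are not, and the grey band is the range of the arrays' lowest signals well above background. Gsc, Evx1 and 1 probe each of Fgf8, Tbx6 and Kdr are filled on all 4 arrays, and Mesp1 is filled only for diploid replicate 1, at -2.32.

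The 2 ligands were Wnt3 and Fgf8. Wnt3, a secreted WNT protein of the posterior epiblast that is needed to form the streak, read -5.94 and -6.33 in haploid replicates 1 and 2 and -6.76 and -6.62 in diploid replicates 1 and 2. None of these was well above background (5.71 to 9.19 intensity units), with spot errors of 4.13 to 5.69 units, so no fold and no order of the groups is given.

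Fgf8, a fibroblast growth factor that streak cells need in order to migrate away, had 3 probes that disagreed. The probe that stood for the gene (A_55_P2101508, the one with the highest mean) read -3.03 and -2.98 in haploid and -3.62 and -3.29 in diploid replicates. Its signal before scaling ran from 50.2 intensity units in diploid replicate 1 to 92.7 in diploid replicate 2. After scaling, both haploid arrays lay above both diploid arrays on this probe. The difference was 0.45 ± 0.19 (SE, n = 2 per group, 95% interval -0.0056 to 0.91), with a limma adjusted p of 0.431. The probe A_55_P2108109 read -4.90, -4.46, -4.39 and -4.17 in the order haploid 1, haploid 2, diploid 1 and diploid 2, with haploid replicate 1 not well above background. There the order of the groups was turned, with both haploid arrays below both diploid ones and a difference of -0.40. The third probe, A_55_P2101506, was well above background only on diploid replicate 2 and read -6.32, -5.66, -5.21 and -4.90 in the same order. With the 2 probes past the filter averaged, Fgf8 differed by 0.025 (limma adjusted p = 0.964).

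Of the 6 transcription factors, T is the T-box factor that drives mesoderm formation in the streak and the notochord. Its signal was 16.7, 20.7, 14.3 and 29.8 intensity units on haploid replicates 1 and 2 and diploid replicates 1 and 2, where the scanner software's own error of the spot was 4.67 to 6.06 units. Only diploid replicate 2 was well above background, yet after scaling haploid replicate 2 was the highest at -4.74, against -4.98 in haploid replicate 1 and -5.43 and -4.93 in the diploid replicates. The groups overlapped. Of the 3638 probes on the array that were well above background on exactly 1 array, 68.9% were so on diploid replicate 2.

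Mixl1, a homeobox factor of the streak that directs mesendoderm, read -6.38 and -6.96 in haploid and -6.67 and -7.30 in diploid replicates. These values overlapped and came from 4.44 to 6.32 intensity units, with spot errors of 4.44 to 6.06 units. A signal about the size of its own error sets no order between the groups.

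Gsc, goosecoid, a homeobox repressor of the anterior streak and the organiser, was well above background throughout. It read -1.54 and -1.26 in haploid and -1.13 and -1.09 in diploid replicates, from 182 to 428 intensity units. Both haploid arrays lay below both diploid arrays, and the difference of -0.29 ± 0.18 (n = 2 per group, 95% interval -0.73 to 0.15) did not pass the test (limma adjusted p = 0.556). The gap between the haploid replicates, 0.28, was about as large as the difference between the groups.

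Evx1, an even-skipped homeobox factor of the posterior streak, varied most of the 5 genes tested, by the probes that stood for them. Haploid replicate 1 read -3.43 and stood above the other arrays, which read -4.39 (haploid replicate 2), -4.29 (diploid replicate 1) and -4.48 (diploid replicate 2). The groups overlapped, with a difference of 0.48 ± 0.32 (n = 2 per group, 95% interval -0.31 to 1.26, limma adjusted p = 0.583). Without haploid replicate 1 the difference was -0.0077, and without haploid replicate 2 it was 0.96 (limma adjusted p = 0.130), so the direction rested on haploid replicate 1.

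Mesp1, a basic helix-loop-helix factor of the earliest cardiac and cranial mesoderm, was bright on a single array. It gave 124 intensity units on diploid replicate 1 (spot error 13.4), against 4.22 and 5.27 on the haploid replicates and 4.34 on diploid replicate 2. On the log2 scale these were -2.32 against -6.96, -6.71 and -7.71. The spot errors of the dim readings were 3.58 to 4.33 units, close to the readings themselves, so no order among those arrays is given. The gene has 1 probe with 1 spot per array, so no repeat of the reading exists on the slide. The spot carried no outlier mark, but its width of 40.7 scanner units was below the array's median of 49.8, and 0.159% of that array's spots well above background were as narrow or narrower. The part of the spot's width in the reading was not tested. Of 297 probes well above background on diploid replicate 1 alone, 42 stood at least 4 log2 units above the next array, as Mesp1 did at 4.40. No other gene of the streak and mesoderm lists below was well above background on diploid replicate 1 alone, and Mesp2, its close relative that acts in somite formation, differed by 0.13.

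Tbx6, a T-box factor of presomitic mesoderm, had 2 probes that disagreed in sign. The probe that stood for the gene (A_55_P2061275) read -3.59 and -3.30 in haploid and -3.89 and -3.55 in diploid replicates. All of these values were well above background, from 41.7 to 77.6 intensity units. These overlapped, with a difference of 0.27 ± 0.21 (n = 2 per group, 95% interval -0.23 to 0.77, limma adjusted p = 0.619). Leaving out haploid replicate 1 or 2 gave 0.42 or 0.12, and leaving out diploid replicate 1 or 2 gave 0.10 or 0.44. The probe A_55_P2061273 read -5.27 and -3.32 in haploid and -3.59 and -3.85 in diploid replicates, a difference of -0.58. On it haploid replicate 1 alone was not well above background, and the haploid arrays were 1.95 apart. With both probes averaged Tbx6 differed by -0.15 (limma adjusted p = 0.882).

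Kdr, the receptor tyrosine kinase for VEGF that marks lateral mesoderm and blood and vessel precursors, had the smallest p of the 5 tested. Its probe A_55_P2094469 read 2.84 and 3.04 in haploid and 2.52 and 2.36 in diploid replicates, from 3539 to 4641 intensity units. Both ends of that range were diploid arrays, and the haploid arrays read 3764 and 4547, so the groups overlapped before scaling. After scaling, both haploid arrays lay above both diploid ones, by 0.50 ± 0.18 or 1.42-fold (n = 2 per group, 95% interval 0.07 to 0.94). The unadjusted limma p was 0.0301 and the adjusted p 0.367, in a fit where 11.7% of all features had an unadjusted p under 0.05. The second Kdr probe, A_51_P316553, was printed in 10 spots and on no array was it well above background. Its mean level was -6.49 and -6.30 in haploid and -6.46 and -6.66 in diploid replicates, values that overlapped. Its spots within 1 array had an SD of 0.43 to 0.75, which gives the scatter of a probe at background on these arrays. The 2 probes carry the same accession, and the sources used here do not give where on the transcript each one lies.

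**Figure D2:**
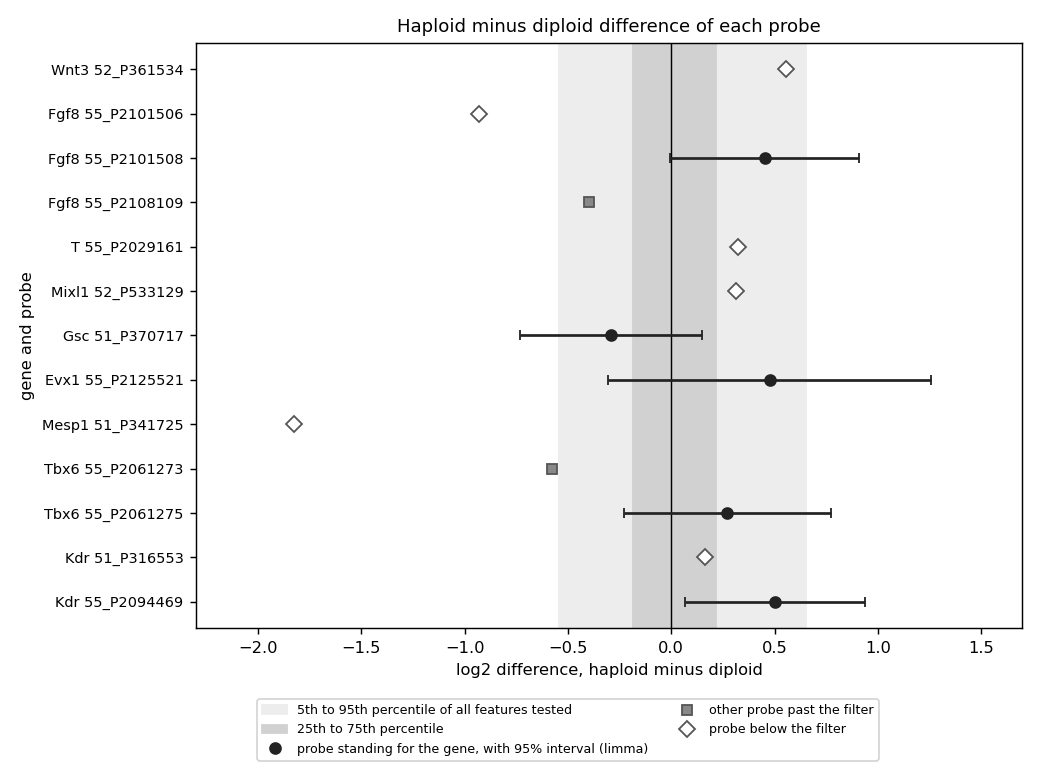
Log2 difference, haploid minus diploid, of each of the 13 probes; black points with 95% intervals from limma are the probes that stood for the 5 genes tested, grey squares other probes past the filter, open diamonds probes below it, and grey bands the spread of all features tested. The probes of Fgf8 and of Tbx6 lie on both sides of 0, and the open diamond at -1.83 is Mesp1, from 1 bright array.

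None of the 5 genes tested passed limma's adjusted threshold of 0.05, and 1 (Kdr) had an unadjusted p under it; over all features 20 of 17963, or 0.111%, passed (0.0835% higher and 0.0278% lower in haploid). With 1 array left out that number ran from 0 (without either diploid replicate) to 226 and 293 (without haploid replicate 1 or 2), and none of the 5 genes was among them. In 3 of the 5 (Fgf8, Kdr and Gsc) the groups did not overlap, beside 47.0% of all features. Of these, 2 had the haploid arrays above (26.0% of all features) and 1 below (20.9%), and 4 of the 5 differences were above 0 (53.2%). The median difference of the 5 was 0.45 and that of all features 0.02. It was 0.025 with all probes past the filter averaged and 0.29 without diploid replicate 1. In a fit of all 32485 features with no filter, the 9 genes had a median of 0.32 (0.04 over all features) and each had a limma adjusted p of 0.873. That median was the value of T and rests in part on the dim probes of T, Mixl1, Mesp1 and Wnt3, so it shows no shift. Over the 15 other processing settings Kdr stayed above 0 (0.40 to 0.83) and Gsc below 0 (-0.50 to -0.15), and neither was called in any. Many of these settings could not turn either sign. The filters, the common floor, the probe mean, the prior and the block left both differences as they were. Leaving out 1 array cannot turn the sign of groups that do not overlap. Only the normexp, quantile, median and deposited value table settings could move it. Fgf8 turned to -0.64, Evx1 to -0.85 and Tbx6 to -1.02 with the normexp background correction over all spots, which gave the 5 a median of -0.64. When normexp left out 23 spots of high local background, Fgf8 was 0.33, Evx1 0.34 and Tbx6 -0.020, with a median of 0.33 for the 5.

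**Figure D3:**
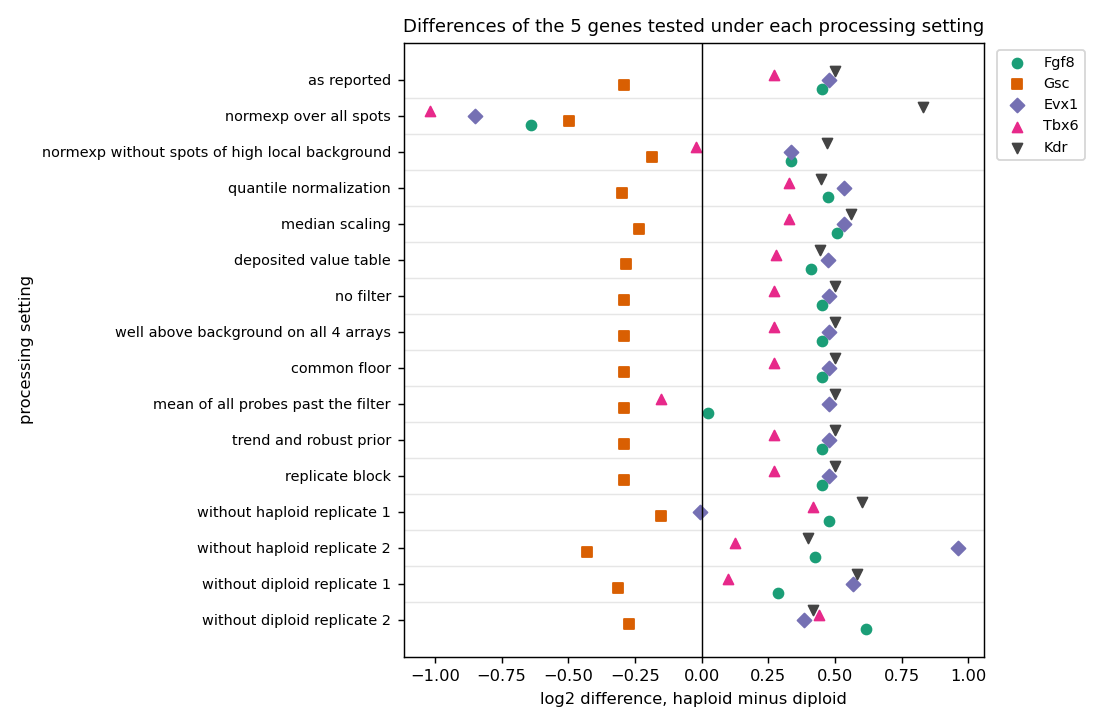
Log2 difference, haploid minus diploid, of the 5 genes tested (marker shape and colour) under the reported processing and 15 alternatives, 1 row each. Kdr keeps to the right of 0 and Gsc to the left in every row, though many of these settings could not turn their sign. Fgf8, Evx1 and Tbx6 cross 0 with normexp over all spots. Tbx6 also crosses it with the mean of all probes and, at -0.020, when normexp left out spots of high local background. Evx1 also crosses it without haploid replicate 1.

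To set the promoters beside these levels, the 250 bases before the RefSeq start were searched on both strands (GRCm38.p6, a later build than the mm9 that the array's design names; 7 of the 9 genes matched). T lies on chromosome 17 (chr17:8434173-8434422, plus strand), Mesp1 on 7 (chr7:79793591-79793840, minus), Gsc on 12 (chr12:104473237-104473486, minus) and Kdr on 5 (chr5:75978456-75978705, minus). T and Mesp1 are shown because they were the only ones of the 7 whose window holds the letters CTTTGA, the core bound by TCF/LEF factors of the WNT pathway, in capitals here on either strand.
T: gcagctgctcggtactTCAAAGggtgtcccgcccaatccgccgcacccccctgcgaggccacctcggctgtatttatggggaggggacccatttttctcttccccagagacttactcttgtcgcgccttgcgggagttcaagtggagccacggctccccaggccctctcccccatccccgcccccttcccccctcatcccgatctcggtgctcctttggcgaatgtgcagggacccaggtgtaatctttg
Mesp1: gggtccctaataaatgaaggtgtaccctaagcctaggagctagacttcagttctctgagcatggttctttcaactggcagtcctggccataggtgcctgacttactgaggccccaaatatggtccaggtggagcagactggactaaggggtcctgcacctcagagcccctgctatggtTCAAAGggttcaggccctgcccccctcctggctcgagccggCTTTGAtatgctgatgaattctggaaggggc
Gsc and Kdr, well above background on all 4 arrays, are shown with the GC box letters GGGCGG in capitals, likewise on either strand.
Gsc: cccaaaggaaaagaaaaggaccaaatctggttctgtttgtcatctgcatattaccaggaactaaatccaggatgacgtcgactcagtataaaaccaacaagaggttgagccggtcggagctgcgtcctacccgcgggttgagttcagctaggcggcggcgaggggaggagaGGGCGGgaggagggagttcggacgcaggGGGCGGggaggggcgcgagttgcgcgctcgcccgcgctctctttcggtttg
Kdr: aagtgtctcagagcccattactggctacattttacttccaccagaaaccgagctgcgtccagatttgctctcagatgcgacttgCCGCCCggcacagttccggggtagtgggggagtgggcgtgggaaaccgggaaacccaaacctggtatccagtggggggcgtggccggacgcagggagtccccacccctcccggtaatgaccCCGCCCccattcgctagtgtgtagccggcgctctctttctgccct

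The letters CTTTGA occurred once in the T window, 229 bases before the start at their near end, and in 2 places in that of Mesp1, 67 and 26 bases before it. Of all 32851 windows of this length 13.8% held them. The GC box letters were in the windows of 4 of the 7 genes (T, Gsc, Kdr and Wnt3) and in 32.7% of all windows. None of the 7 windows held TCACACC (the T-box half-site, in 3.33% of windows), AATNCACA (FOXH1, in 3.18%) or TAATCC (the type of site GSC binds, in 6.25%), which says only that these letters are not in these windows. Gsc and Wnt3 had 22 CpG dinucleotides each and Mesp1 had 2, against a median of 6 over all windows.

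The genes nearest in pattern to Evx1, whose range of 1.05 was the widest among the probes that stood for the tested genes, followed haploid replicate 1 as it did. By Euclidean distance between the mean-centred levels on the 4 arrays, these were Tgfbi (0.13), Irx6 (0.13), Dpysl3 (0.17), Lpar6 (0.21) and Tmem245 (0.22). With only 4 arrays 29 genes lay within 0.3 of it.

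Other genes of the streak and node were tested in 11 of 22 cases, and none passed the test. Of the 11, 4 lay above 0 and 7 below, with a median of -0.13. Snai1, the repressor of E-cadherin in cells that leave the streak, read -1.09 and -1.23 in haploid and -2.04 and -1.83 in diploid replicates (difference 0.78 ± 0.18, n = 2 per group, limma adjusted p = 0.195). Lhx1, a LIM homeobox factor of the anterior streak, differed by -0.52 ± 0.17, and Tdgf1 (Cripto), the co-receptor of NODAL, by -0.51 ± 0.19 (limma adjusted p of 0.332 and 0.370). In each of these 3, picked for their small p, the groups did not overlap, beside 47.0% of all features. Of the 11 tested, 4 had the haploid arrays above and 5 below, beside 26.0% and 20.9% of all features. Of the 11 not tested, 7 were well above background on no array by any probe, Wnt3a, Wnt8a and Cer1 among them.

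Among other mesoderm genes 12 of 28 were tested and none passed, with 7 above 0, 5 below and a median of 0.13. Cited1, a transcriptional co-activator, read 2.80 and 3.21 in haploid and 2.11 and 1.87 in diploid replicates, and its groups did not overlap (1.02 ± 0.21, n = 2 per group, limma adjusted p = 0.172). Lmo2, a cofactor of blood formation, differed by -0.46 ± 0.18 and Gata2, a factor of blood precursors, by 0.82 ± 0.36 (limma adjusted p of 0.413 and 0.442). Foxc1, Foxc2, Foxf1, Meox1, Hand2, Isl1, Pdgfra, Rspo3, Zeb2 and Cdh5 were well above background on no array, and Msgn1, a target of TBX6 in presomitic mesoderm, only on diploid replicate 2.

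The receptors that WNT3 and FGF8 signal through were nearly all detected, with 15 of 16 tested, none called, 3 above 0 and 12 below, and a median of -0.33. The Frizzled receptor gene Fzd1 read -3.68 and -4.14 in haploid and -3.08 and -2.65 in diploid replicates (difference -1.04 ± 0.24, n = 2 per group, limma adjusted p = 0.195). Fzd8 differed by -1.05 ± 0.33 and Fzd4 by -0.61 ± 0.22 (limma adjusted p of 0.308 and 0.369). In all 3, picked for their small p, the haploid arrays lay below the diploid ones, with Fzd8 not well above background on haploid replicate 1 (-4.94). Of the 15 tested, 5 had the haploid arrays below and 1 above, beside 20.9% and 26.0% of all features. The FGF receptor genes Fgfr1, Fgfr2, Fgfr3 and Fgfr4 differed by -0.10, 0.31, -0.52 and -0.03, and their groups overlapped, though a second Fgfr3 probe differed by -1.49.

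The ligands and fellow receptors of KDR lay on both sides of 0, with 8 of 9 tested, none called, 4 above and 4 below, and a median of -0.02. Vegfa, the main ligand, read -0.32 and 0.01 in haploid and 0.62 and 0.88 in diploid replicates, opposite in direction to the Kdr probe above (-0.90 ± 0.20, n = 2 per group, limma adjusted p = 0.190). Nrp2, a co-receptor, differed by 0.98 ± 0.20 and Vegfc, a ligand of lymphatic vessels, by -0.55 ± 0.20 (limma adjusted p of 0.172 and 0.373). In the genes of the cadherin switch, by which streak cells leave the epithelium, none of 6 was called. There Vim (vimentin), Epcam and Fn1 (fibronectin) differed by 0.45 ± 0.17, -0.28 ± 0.17 and 0.27 ± 0.17. The cadherin genes Cdh1 and Cdh2 differed by -0.13 and 0.12, with overlapping groups, and Zeb1 by -0.10. The median of the 6 was 0.007.

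**Figure D4:**
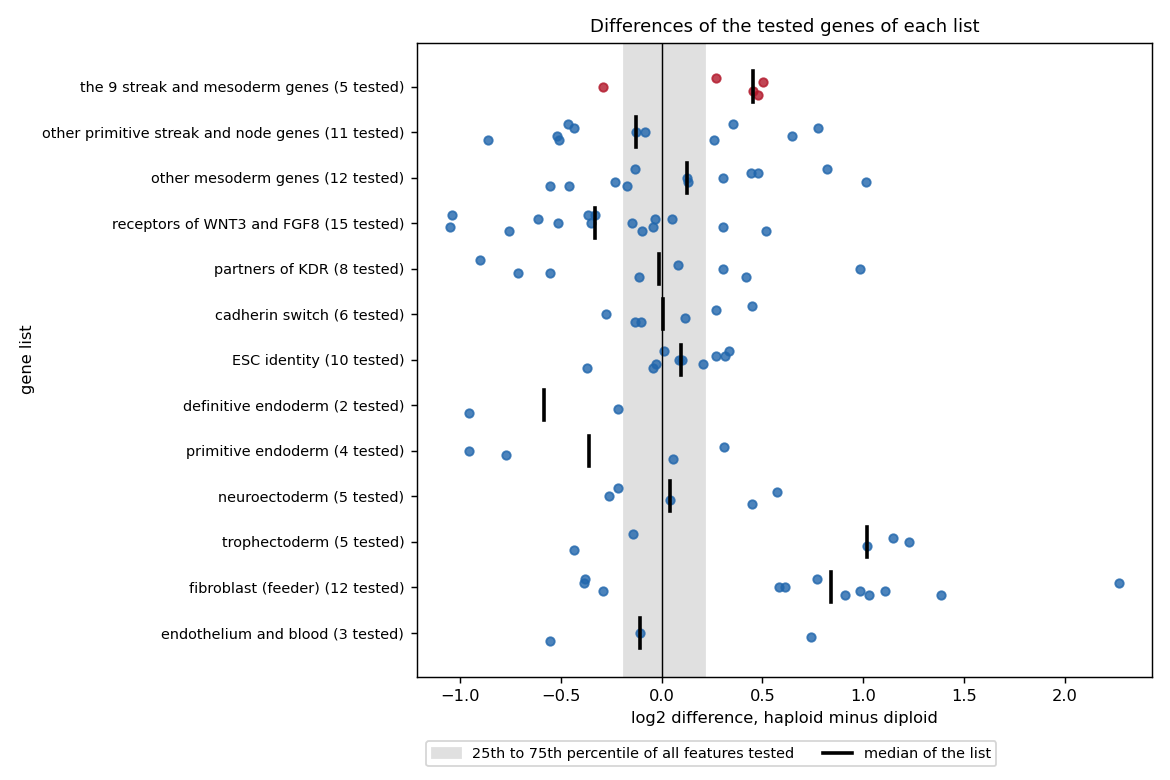
Log2 difference, haploid minus diploid, of every tested gene of each list (points; the vertical offset only separates them), with the list's median as a black bar and the middle of all features tested as a grey band. The points of the streak, mesoderm and receptor lists lie on both sides of 0, and the bars of the trophectoderm and fibroblast lists are at 1.02 and 0.84.

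Markers of other cell types gave the following. Among 8 endothelial and blood markers, which can accompany Kdr, Cdh5, Tie1 and Emcn were well above background on no array and Tek and Ptprc only on diploid replicate 2, and 3 were tested. The summed scaled signal of those 3 ran from 0.671 to 0.724 times the 75th percentile in haploid and from 0.627 to 0.772 in diploid replicates. That sum rests mostly on Pecam1 (mean level -1.26 in haploid, -1.16 in diploid). Hba-a1 (a haemoglobin chain), Cd34 and Pecam1 differed by 0.74 ± 0.18, -0.55 ± 0.28 and -0.11 ± 0.26. For 12 tested fibroblast markers, which mark feeder cells, 9 lay above 0 and 3 below. Their sum was 13.3 to 17.4 in haploid and 7.47 to 10.3 in diploid replicates. Thbs1 differed by 1.39 ± 0.26, Fbln5 by 1.03 ± 0.22 and S100a4 by 2.27 ± 0.51. Those below 0 were Col3a1 at -0.39, Dcn at -0.38 and Lum at -0.29. Of the 5 of 8 trophectoderm markers tested, 3 lay above 0 and 2 below. Krt18 differed by 1.23 ± 0.17, Krt8 by 1.15 ± 0.23 and Gata3 by 1.02 ± 0.19, against Eomes at -0.43 and Tfap2c at -0.14. Their sum was 14.6 to 17.9 in haploid and no more than 13.5 in diploid replicates. It rests mostly on Tfap2c (mean level 3.17 in haploid, 3.31 in diploid) and Krt18 (2.61 and 1.38). Elf5 was well above background on no array and Cdx2 only on diploid replicate 2. None of these markers passed limma's adjusted threshold, and their part in the differences of Kdr, Fgf8 and Snai1 was not tested.

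Markers of other lineages were detected in part. Of 6 definitive endoderm markers 2 were tested, Gata6 at -0.96 ± 0.43 and Hhex at -0.22 ± 0.17, while Cer1 and Cxcr4 were well above background on no array. Of 8 primitive endoderm markers 4 were tested, with Gata4 at -0.77 ± 0.28 and Lama1 at 0.31 ± 0.17. Neither Gata6 (-5.80) nor Gata4 (-5.14) was well above background on haploid replicate 1, so the sizes of these differences rest on a reading below that level. Of 8 neuroectoderm markers 5 were tested, with Tubb3 at 0.57 ± 0.19, Nes at 0.45 ± 0.19 and Sox1 at -0.26 ± 0.20. None of these passed limma's adjusted threshold.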

How the data were processed

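Expression was measured in 2 haploid and 2 diploid samples, on 1 array each. Per the file headers, the authors extracted the spots with Agilent Feature Extraction (version 11.0.1.1). The deposited processed signal is a background-subtracted intensity on a linear scale; spot width is in the software's own units. The deposited value table holds linear intensity brought near 1 distribution by a method not given in the sources used here (column medians 28.3 to 28.4). Control spots and outlier-marked spots (121 to 168 of 43020) were left out, no spot was saturated, and a probe's repeated spots were averaged. Scaling used no floor, and slide and scan time gave no batch to fit. The number of arrays limits the precision.

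Levels are log2 of the processed signal minus the array's 75th percentile. Of 39429 probes 26055 were named through RefSeq accessions (GRCm38.p6 table), giving 19751 symbols. A tested probe was called well above background on both haploid or both diploid arrays (a repeated probe, in at least 0.5 of its spots), and the probe with the highest mean stood for its gene. Limma 3.58.1 (R 4.3.3, lmFit and eBayes, two-sided, Benjamini-Hochberg over all features, threshold 0.05) compared the groups, and errors are its SE. The fit was also run on data simulated under its own variance model, which cannot test how well that model suits these arrays. Python 3.11.15 and pandas 2.3.3 read the files.

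The files hold no mean spot signal, so the normexp alternatives used the median spot signal (offset 50). Replicates 1 and 2 of each kind share a number but no stated origin. The genes, lists and tests were chosen with earlier results of these data known. Text names the 9 genes, up to 3 genes of each other list with the smallest p, any called, and the 5 nearest in pattern to the widest-ranging gene. Chosen after their values were seen were genes given as detected or not detected, Mesp2, Eomes, Tfap2c and the FGF receptor genes. So were Col3a1, Dcn, Lum, Cdh1, Cdh2 and Zeb1.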

Additional observations from a re-analysis of the deposited data

How the results depend on the processing

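With 2 arrays per group, only large differences could pass the test, and the dim probes of T, Mixl1, Mesp1 and Wnt3 could not be ordered. None of the 5 tested genes was called in the 15 alternatives, nor any of the 9 with no filter, the 1 alternative that tested all of them (0 called by limma in each, with 0 to 2 at an unadjusted p under 0.05). The median difference of the 5 tested genes was -0.64 with normexp over all spots, which moved the median of all features from 0.02 to -0.10. The median of the 5 was 0.33 when normexp left out spots of high local background, and 0.025 with the mean of all probes past the filter. It ran from 0.29 to 0.42 with 1 array left out. Signs turned for Evx1 (-0.85), Fgf8 (-0.64) and Tbx6 (-1.02) with normexp over all spots, for Tbx6 also when normexp left out spots of high local background (-0.020) and with the mean of all probes (-0.15), and for Evx1 with 1 array left out (-0.0077 without haploid replicate 1, up to 0.96 without haploid replicate 2). The cause was not tested.

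Over all features 20 were called (15 higher, 5 lower). There were 122 when normexp left out those spots (118 higher, 4 lower), 83 with median scaling, 82 with probes well above background on all 4 arrays (78 higher, 4 lower), 425 with a trend and robust prior, 5 with quantile normalization, 4 with the deposited value table, and 0 with normexp over all spots, with no filter and with a common floor (121, 1662 and 2066 at an unadjusted p under 0.05). With 1 array left out, limma called from 0 (without diploid replicate 1 or 2, where 2345 and 1200 features had an unadjusted p under 0.05) to 293 (without haploid replicate 2), and 226 without haploid replicate 1; the lone array is then assumed to vary like the other group.

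With the replicate number as a block, 2 features were called. The median of the 5 genes stayed at 0.45, but a block cannot change a difference when each group holds an array of each number. Deviations of same-numbered arrays correlated at only 0.048, so the numbers were not taken as pairs.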
